A study of Homo sapiens with 8 samples.

Results

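The transcription factor ATF4 and 32 genes of the integrated stress response around it were measured by RNA sequencing in the human skin fibroblast line BJ, after overexpression or knockdown of the long noncoding RNA PURPL. The members were taken by name from a list of known regulators and targets of ATF4. All 33 names were found once in each of the 3 deposited tables, among 59370 gene names in all. The 4 groups held 2 libraries each. OE-PURPL cells overexpressed PURPL and were set against PCDNA, their control. ASO-PURPL cells were treated with an ASO, an antisense oligonucleotide, against PURPL and were set against ASO-NC, the control ASO. The sources used here give no time after treatment, no dose, no vector map and no ASO sequence, and do not say whether replicates were separate cultures. The p-values below thus reflect library-to-library spread pooled over both comparisons. Part or all of that spread may be technical. Groups were taken from the sample labels, because the design text describes a different, murine line.

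When a cell is short of amino acids or heme, when unfolded proteins build up in the endoplasmic reticulum, or when double-stranded RNA is sensed, kinases phosphorylate the initiation factor eIF2alpha. Most translation then slows, while ATF4 messenger RNA is translated better because of upstream open reading frames. ATF4 pairs with C/EBP proteins and switches on genes for amino acid uptake and synthesis, for tRNA charging and, when stress lasts, for cell death and for feedback. ATF4 is thus controlled largely at translation, a step that RNA levels do not measure. In fibroblasts the same program can supply glycine and proline for collagen.

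Levels are in FPKM (fragments scaled to transcript length and to library size), a unit inferred from the files. Replicate 1 of each arm stands in a table of its own and replicate 2 of all groups in another, so each treated library was set against the control that shares its table. Each pair gives a log2 ratio of FPKM plus 1, a scale on which changes of low genes are understated. In every library 13442 to 14598 genes reached 1 FPKM, and read depth is unknown. PURPL stood at 153 and 238 FPKM in OE-PURPL against 5.42 and 5.73 FPKM in PCDNA (log2 change 4.87, SE 0.16, adjusted p = 0.00511, limma). After knockdown it stood at 6.31 and 4.24 FPKM in ASO-PURPL against 16.2 and 9.74 FPKM in ASO-NC (log2 change -1.13, SE 0.16, adjusted p = 0.374, limma). All 12 fibroblast markers, such as COL1A1, were above 1 FPKM in every library, while no epithelial, leukocyte, endothelial or melanocyte marker exceeded 3.51 FPKM in any. The arms differed from each other in state, with 5 interferon-stimulated genes summing to 8964 and 9447 FPKM in OE-PURPL, 7409.6 and 7423 FPKM in PCDNA, 1021 and 826 FPKM in ASO-PURPL and 872 and 996 FPKM in ASO-NC.

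In bulk samples such as these, fewer cells expressing a gene and less RNA per cell cannot be told apart. All members but CTH were at or above 1 FPKM in every library, and all 33 were tested, CTH through the knockdown arm only. Together the members held 0.413% to 0.520% of the summed FPKM of a library. The highest mean over all libraries was that of STC2, a secreted glycoprotein hormone (480.1 FPKM), followed by ATF4 (256 FPKM), SLC3A2, the heavy chain of several amino acid exchangers (254 FPKM), PPP1R15A, the stress-induced subunit of the eIF2alpha phosphatase (224 FPKM), and SLC38A2, a sodium-coupled carrier of small neutral amino acids (179.6 FPKM). ATF4 and SLC3A2 did not differ beyond the spread between libraries. The lowest means were those of CTH, which makes cysteine from cystathionine (1.60 FPKM), and VLDLR, a lipoprotein receptor (4.94 FPKM).

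**Figure D1:**
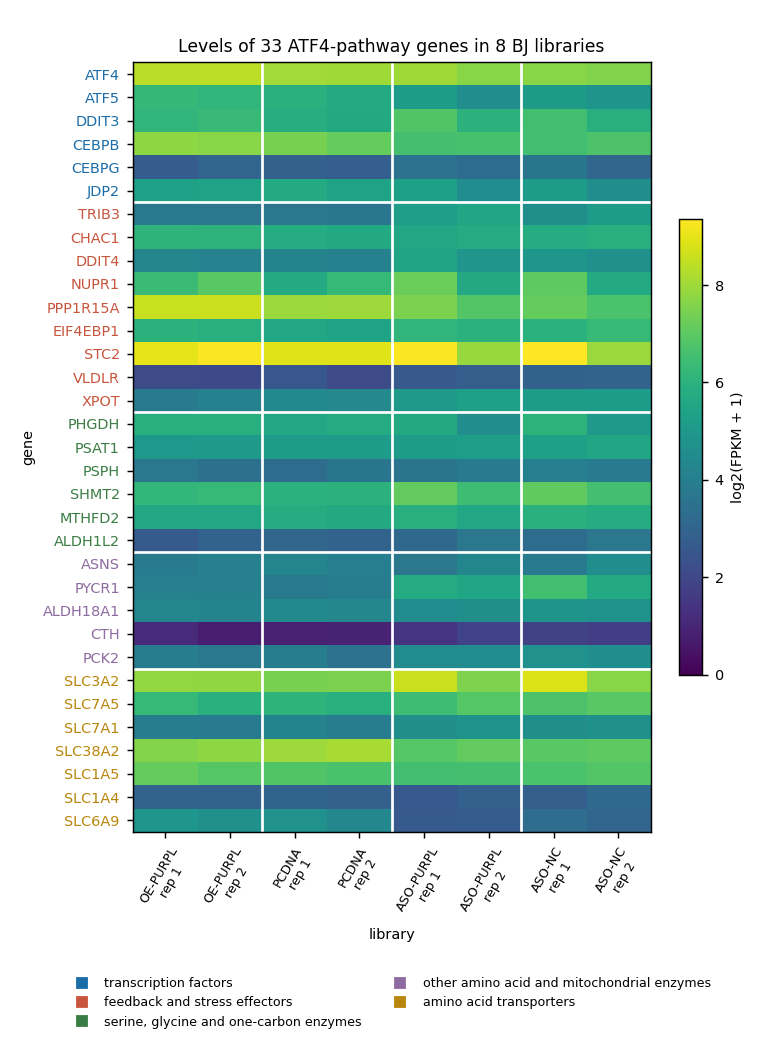
Level of each of the 33 genes (rows, coloured by role) as log2 of FPKM plus 1 in the 8 libraries (columns). STC2, PPP1R15A and ATF4 are bright in every library, CTH is darkest, and PYCR1 and TRIB3 are brighter in the 4 ASO libraries than in the 4 plasmid-arm libraries.

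Replicates of all genes lay further apart in the knockdown arm. Between replicate 1 and 2, 0 members differed by at least 1 on the log2 scale in OE-PURPL and in PCDNA (1.63% and 1.84% of all genes tested), whereas 4 did in ASO-PURPL and 4 in ASO-NC, where 9.09% and 6.79% of all genes tested did. These were NUPR1, STC2, SLC3A2 and PHGDH in both groups. STC2 stood at 626 and 239 FPKM in ASO-PURPL and at 649 and 244 FPKM in ASO-NC, so that treated and control libraries of a table moved together. Levels set across tables, as here, may also carry the tables' own scaling.

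C/EBP and ATF proteins bind together at a composite site with the letters TGATGNAA, and short stretches around it are shown because it is the best known mark of an ATF4 target. RefSeq promoter windows (250 bases before to 50 after an annotated start, GRCh38.p14) were available for 27 members. The motif was searched on both strands (TGATGNAA or TTNCATCA), and 8 of the 27 genes held it in at least 1 window (29.6%), compared with 4.46% of all 27305 genes with a window. Counted by window, the shares were 18.6% of 43 member windows and 3.62% of all 35116. The members were listed as known regulators and targets of ATF4, so a higher share is built into the list and tests nothing. The capitals mark the motif, and each line reads 5′ to 3′ on the strand of the gene.
ASNS, chr7:97872458-97872487, minus strand, motif from 68 bases before the start: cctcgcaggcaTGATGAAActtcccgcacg
CHAC1, chr15:40953251-40953280, plus strand, from 209 bases before: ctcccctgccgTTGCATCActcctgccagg
CEBPG, chr19:33374060-33374089, plus strand, from 42 bases before: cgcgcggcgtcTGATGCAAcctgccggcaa
JDP2, chr14:75427995-75428024, plus strand, from 16 bases before: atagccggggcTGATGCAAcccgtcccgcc
SLC1A5, chr19:46784893-46784922, minus strand, from 97 bases before: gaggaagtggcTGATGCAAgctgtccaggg
SLC1A4, chr2:64989381-64989410, plus strand, from 7 bases before: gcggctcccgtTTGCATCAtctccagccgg
SLC7A1 and SLC3A2 held the motif just after an annotated start. CHAC1, SLC1A4 and SLC3A2 have it on the opposite strand. A match is a description of these letters and not a measured site.

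After overexpression of PURPL, no member passed the test over all genes, and the changes that stood out were modest. The factors ATF4, DDIT3, CEBPB and ATF5 and the stress effectors NUPR1, PPP1R15A, CHAC1 and EIF4EBP1 were higher than in PCDNA in both pairs, by means of 0.32 to 0.68 on the log2 scale. The factors CEBPG and JDP2 had pairs of opposite sign, and the effectors TRIB3 and DDIT4 changed by only 0.06 and 0.07. Enzymes of serine and one-carbon metabolism, which ATF4 also controls, had a median change of -0.02. The transporter SLC38A2 and the tRNA exporter XPOT were lower in both pairs. By limma on the 4 ratios of each gene, 0 of 33 members had an adjusted p under 0.05 (lowest 0.324), a call made for 0.0267% of the 14977 genes tested. At an unadjusted p under 0.05 stood 13 members (39.4%), compared with 13.8% of all genes, 11 of them higher (8.25% of all genes) and 2 lower (5.51%). In both pairs 18 members were higher (32.6% of all genes) and 7 lower (31.1%), and the median change was 0.11 for the members and 0.00 for all genes tested. OE-PURPL and PCDNA libraries did not overlap for 15 members that were higher (23.5% of all genes) and 6 that were lower (23.4%). Members were chosen with earlier results of these data known, so these counts describe the list and do not test it.

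Among the transcription factors, ATF4 (chromosome 22, 39519695 to 39522685, plus strand in GENCODE 29) stood at 328 and 339.7 FPKM in OE-PURPL against 266 and 257 FPKM in PCDNA. Both OE-PURPL libraries lay above both PCDNA libraries. The mean log2 change was 0.35 (SE 0.10, adjusted p = 0.325, limma). DDIT3, the factor also called CHOP that promotes cell death under lasting stress, stood at 69.4 and 77.2 FPKM in OE-PURPL against 55.6 and 50.6 FPKM in PCDNA (log2 change 0.46, SE 0.10). CEBPB, a C/EBP partner of ATF4, stood at 213 and 206 FPKM in OE-PURPL against 172 and 139 FPKM in PCDNA (0.44, SE 0.11). ATF5, a relative of ATF4 that guards mitochondria, stood at 74.6 and 70.9 FPKM in OE-PURPL against 60.3 and 51.2 FPKM in PCDNA (0.38, SE 0.11). For all of these the groups did not overlap. CEBPG, the usual dimer partner of ATF4, had ratios of -0.16 and 0.27, and JDP2, a repressor of the AP-1 family, of -0.36 and 0.03, so the pairs of both disagreed. The median change of the 6 factors was 0.37.

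The stress effectors held the members with the largest changes. NUPR1, a small stress-induced chromatin protein (chromosome 16, 28532708 to 28539174, minus strand), stood at 81.8 and 124 FPKM in OE-PURPL against 51.6 and 75.7 FPKM in PCDNA, 1.59-fold and 1.63-fold. Its log2 change was 0.68 (SE 0.11, adjusted p = 0.324, limma), and the lower OE-PURPL library lay just above the higher PCDNA library. PPP1R15A (chromosome 19, 48872392 to 48876057, plus strand), which brings the phosphatase to eIF2alpha and so ends the response, stood at 375 and 389 FPKM in OE-PURPL against 243 and 251 FPKM in PCDNA. The groups were far apart, with 1.54-fold and 1.55-fold in the pairs and a log2 change of 0.63 (SE 0.10, adjusted p = 0.324, limma). EIF4EBP1, a repressor of cap-dependent translation, stood at 64.0 and 56.9 FPKM in OE-PURPL against 46.6 and 42.2 FPKM in PCDNA (0.43, SE 0.13). CHAC1, which degrades glutathione, stood at 67.0 and 64.1 FPKM in OE-PURPL against 54.4 and 49.99 FPKM in PCDNA (0.32, SE 0.08). Neither group pair overlapped.

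Of the 9 effectors, 7 were higher and 2 lower in both pairs. TRIB3, a pseudokinase that restrains ATF4 and DDIT3, stood at 12.6 and 12.1 FPKM in OE-PURPL against 11.9 and 11.6 FPKM in PCDNA, a log2 change of 0.06 (SE 0.10), small although the groups did not overlap. DDIT4, an inhibitor of mTORC1, had ratios of 0.08 and 0.06, and STC2 of 0.12 and 0.43. The 2 lower effectors were XPOT and VLDLR. XPOT, which carries tRNA out of the nucleus, stood at 14.0 and 16.3 FPKM in OE-PURPL against 20.7 and 20.3 FPKM in PCDNA, with both OE-PURPL libraries below both PCDNA libraries. Its log2 change was -0.42 (SE 0.12, adjusted p = 0.324, limma). VLDLR had ratios of -0.40 and -0.03.

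The biosynthetic enzymes were spread around 0. SHMT2, the mitochondrial enzyme that makes glycine from serine, stood at 71.4 and 75.2 FPKM in OE-PURPL against 61.8 and 64.0 FPKM in PCDNA (0.22, SE 0.09), and PHGDH, the first enzyme of serine synthesis, at 56.5 and 59.0 FPKM in OE-PURPL against 46.7 and 52.9 FPKM in PCDNA (0.21, SE 0.09). Both were higher in both pairs. PSAT1, the next enzyme of the same route, had ratios of -0.13 and -0.15, and MTHFD2, which oxidises one-carbon units in mitochondria, of -0.25 and -0.08. ASNS, asparagine synthetase and a classic ATF4 target, stood at 13.6 and 15.7 FPKM in OE-PURPL against 18.0 and 15.3 FPKM in PCDNA, with overlapping groups. PSPH, the last enzyme of serine synthesis, ALDH1L2, a mitochondrial folate enzyme, CTH and PCK2 had pairs of opposite sign, PYCR1 ratios of 0.29 and 0.09 and ALDH18A1 of -0.18 and -0.12, the last pair being enzymes of proline synthesis.

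The transporters diverged. SLC3A2 stood at 228 and 219.9 FPKM in OE-PURPL against 172 and 178 FPKM in PCDNA, and its groups did not overlap (0.35, SE 0.09, adjusted p = 0.324, limma). SLC1A5, the main glutamine carrier, stood at 138 and 118 FPKM in OE-PURPL against 109.8 and 99.3 FPKM in PCDNA (0.29, SE 0.08). SLC38A2 (chromosome 12, 46358189 to 46372867, minus strand) stood at 193 and 213 FPKM in OE-PURPL against 251 and 275 FPKM in PCDNA, 0.77-fold in both pairs, and its groups did not overlap either. Its log2 change was -0.38 (SE 0.08, adjusted p = 0.324, limma). The light chain SLC7A5, which pairs with SLC3A2 to import leucine, had ratios of 0.17 and 0.06, SLC6A9, a glycine carrier, of 0.19 and 0.33, SLC7A1, the carrier of arginine and lysine, of -0.25 and -0.15, and SLC1A4, a carrier of alanine and serine, of -0.03 and 0.08.

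**Figure D2:**
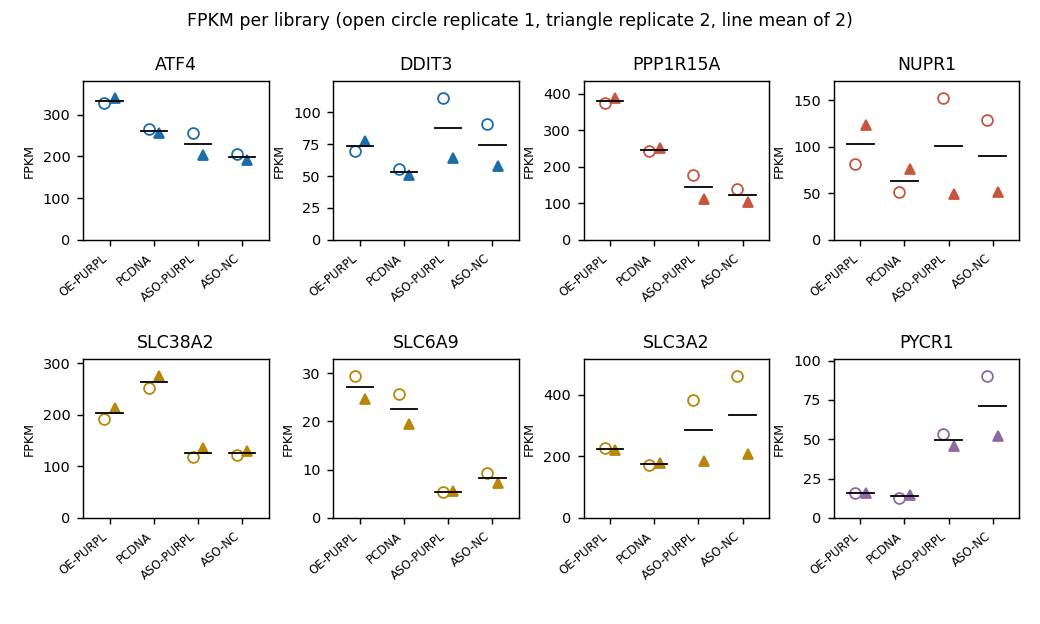
FPKM of 8 members in each library, with the groups OE-PURPL, PCDNA, ASO-PURPL and ASO-NC from left to right, open circles for replicate 1, triangles for replicate 2 and a line at the mean of 2. PPP1R15A and ATF4 are highest in OE-PURPL, SLC38A2 is highest in PCDNA, and NUPR1 and SLC3A2 differ between replicates of the ASO groups as much as between groups.

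Several measured features moved with these ratios. Across 13339 genes with a GENCODE 29 transcript, the overexpression ratios of the pairs had Spearman correlations of -0.34 and -0.36 with transcript length and of 0.46 and 0.37 with GC content. Across the 33 members the values were -0.62 and -0.37 for length and 0.60 and 0.60 for GC content. These are correlations across genes that share the same libraries. With the trend on both features removed from the ratios, the log2 changes of ATF4, ATF5 and CEBPB were 0.17, 0.17 and 0.20, those of CHAC1, EIF4EBP1, SLC3A2 and SLC1A5 were 0.09, 0.16, 0.18 and 0.13, those of DDIT3 and PPP1R15A were 0.33 and 0.45, and those of SHMT2, SLC38A2 and XPOT were 0.12, -0.20 and -0.23. NUPR1 stood at 0.74 on that scale, which took the longest annotated transcript of each name. For NUPR1 that was 5491 bases, compared with a median of 2882 for the members. Whether the cells expressed that transcript was not tested, so the value of 0.74 depends on that length. With the trend removed, 5 members stood at an unadjusted p under 0.05 (DDIT3, NUPR1, PPP1R15A, SLC38A2 and STC2), compared with 7.71% of genes. Without the first overexpression pair the count was 4 (5.69% of genes) and without the second 3 (4.77%). In a fit that both drops the replicate block and quantile-normalizes the levels it was 2, PPP1R15A and SLC38A2 (2.70% of genes). The share of all genes thus fell under each of these settings as well. Markers of cell state moved with the comparison too. All 5 interferon-stimulated genes were higher and all 5 mitosis genes lower in both overexpression pairs, with medians of 0.23 and -0.30. The mitosis genes summed to 52.5 and 64.7 FPKM in OE-PURPL against 63.8 and 75 FPKM in PCDNA. The 4 epithelial markers summed to 2.94 and 4.22 FPKM in OE-PURPL against 1.59 and 1.99 FPKM in PCDNA, through KRT14 and EPCAM, while KRT5 and CDH1 were below 1 FPKM in every library. The part of these markers in the members' values was not tested.

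**Figure D3:**
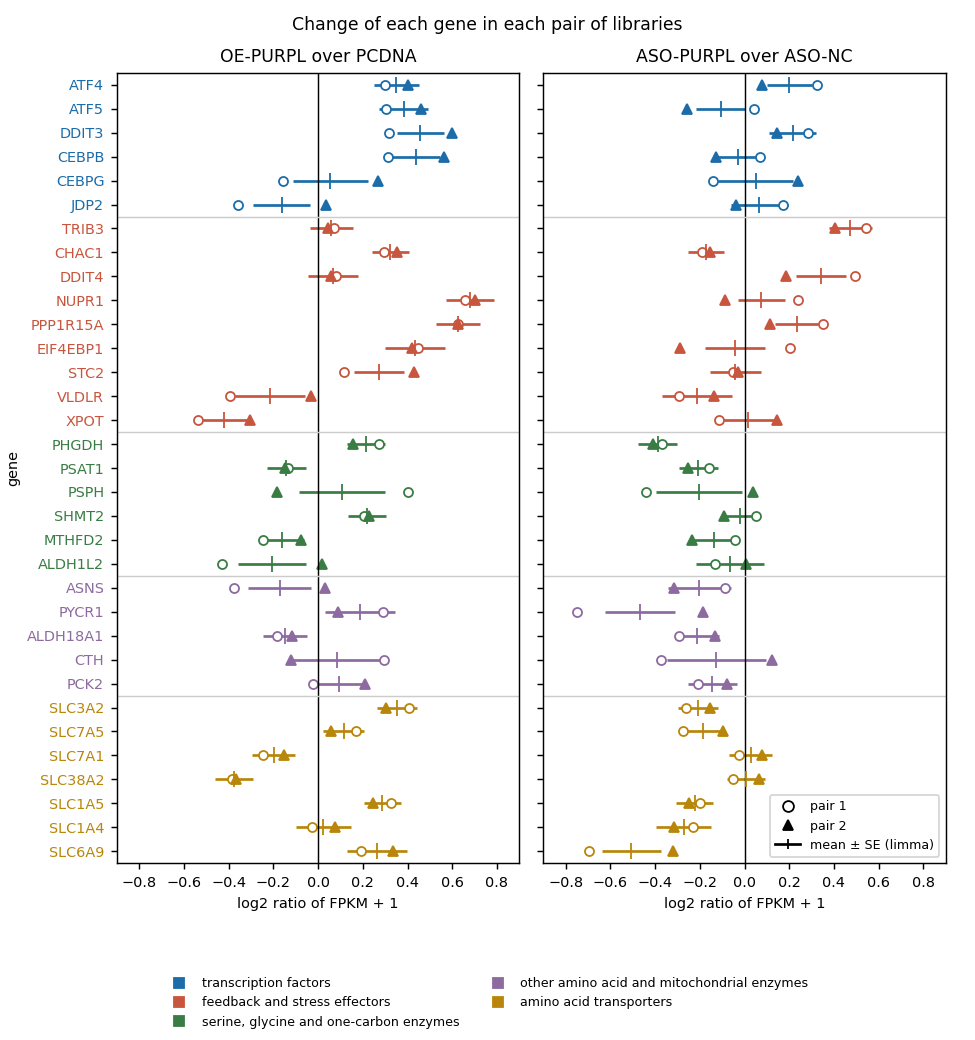
Log2 ratio of FPKM plus 1 for each of the 33 genes (rows, coloured by role), with OE-PURPL over PCDNA in the left panel and ASO-PURPL over ASO-NC in the right. Circles are pair 1, triangles pair 2 and bars the limma mean ± SE. NUPR1 and PPP1R15A lie furthest right in the left panel at 0.68 and 0.63, and TRIB3 furthest right in the right panel at 0.47.

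After knockdown of PURPL, TRIB3 and DDIT4 were higher in ASO-PURPL than in ASO-NC in both pairs, while PHGDH, PYCR1, SLC1A5 and SLC6A9, which make serine and proline or carry glutamine and glycine, were lower in both. No member passed the test over all genes (0 of 33 by limma, lowest adjusted p = 0.582), nor did any other gene (0% of 14977). At an unadjusted p under 0.05 stood 6 members (18.2%), compared with 8.18% of all genes, 2 of them higher (3.54% of all genes) and 4 lower (4.64%). In both pairs 5 members were higher (19.3% of all genes) and 15 lower (33.4%), with a median of -0.11 for the members and -0.04 for all genes tested. ASO-PURPL and ASO-NC libraries did not overlap for 1 member that was higher, TRIB3 (8.37% of all genes), and 7 that were lower (13.1%), but replicates of this arm lay far apart. The count of 6 was 3 without either overexpression pair, which share in the estimate of spread (5.39% of genes each time), and 3 without the first knockdown pair (6.98%). It was 2, DDIT4 and SLC6A9, with the replicate block dropped and the levels quantile-normalized (3.94% of genes), and 10 with no filter on low genes (4.38%). With the trend on length and GC content removed it was 9 (9.26%), and with ratios centred on the median gene 8 (7.56%). It was 4 when the limma spread was not modelled on the mean level (8.33%).

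ATF4 itself stood at 257 and 202 FPKM in ASO-PURPL against 205 and 191 FPKM in ASO-NC, with ratios of 0.32 and 0.08 and a log2 change of 0.20 (SE 0.10, adjusted p = 0.622, limma). The ranges overlapped only narrowly between the lower ASO-PURPL library and the higher ASO-NC library. DDIT3 had ratios of 0.28 and 0.15 and PPP1R15A of 0.35 and 0.11, again higher in both pairs. CEBPB, ATF5, CEBPG and JDP2 had pairs of opposite sign.

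TRIB3 (chromosome 20, 362835 to 397559, plus strand) stood at 35.9 and 44.9 FPKM in ASO-PURPL against 24.4 and 33.6 FPKM in ASO-NC, 1.48-fold and 1.33-fold. Its log2 change was 0.47 (SE 0.10, adjusted p = 0.582, limma). DDIT4 stood at 42.7 and 28.6 FPKM in ASO-PURPL against 30.0 and 25.0 FPKM in ASO-NC (0.34, SE 0.11), with overlapping ranges but a higher value in each pair. NUPR1 stood at 152 and 48.8 FPKM in ASO-PURPL against 129 and 52.0 FPKM in ASO-NC, with pairs of opposite sign. CHAC1 stood at 47.7 and 52.8 FPKM in ASO-PURPL against 54.6 and 58.9 FPKM in ASO-NC (-0.17, SE 0.08), so that both ASO-PURPL libraries lay below both of ASO-NC. EIF4EBP1 and XPOT had pairs of opposite sign, STC2 had ratios of -0.05 and -0.03 and VLDLR of -0.29 and -0.14.

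Of the 18 enzymes and transporters, 12 were lower in both knockdown pairs (66.7%, compared with 33.4% of all genes) and 0 higher in both (19.3% of all genes). Of the 6 factors 2 were higher and 0 lower in both, and of the 9 effectors 3 were higher and 3 lower. The enzymes and transporters were pooled with results of these data known, so their counts describe them and do not test them. Against a median of -0.04 for all genes tested, the medians were -0.17 for serine, glycine and one-carbon enzymes, -0.20 for the other enzymes and -0.21 for the transporters. PHGDH (chromosome 1, 119648411 to 119744226, plus strand) stood at 49.8 and 23.2 FPKM in ASO-PURPL against 64.6 and 31.1 FPKM in ASO-NC, 0.77-fold and 0.75-fold (log2 change -0.39, SE 0.09, adjusted p = 0.582, limma). The ratio was alike in both pairs, although replicate 1 stood above replicate 2 in both groups. PYCR1, which makes proline in mitochondria, stood at 53.1 and 45.6 FPKM in ASO-PURPL against 90.1 and 52.0 FPKM in ASO-NC (-0.47, SE 0.16), with a much larger difference in pair 1. SLC6A9 stood at 5.33 and 5.596 FPKM in ASO-PURPL against 9.25 and 7.22 FPKM in ASO-NC (-0.51, SE 0.13), and its groups did not overlap. SLC1A5 stood at 90.6 and 96.4 FPKM in ASO-PURPL against 104 and 115 FPKM in ASO-NC (-0.22, SE 0.08), without overlap as well. PSAT1 had ratios of -0.16 and -0.26, ALDH18A1 of -0.29 and -0.13, ASNS of -0.09 and -0.32, PCK2, the mitochondrial PEP carboxykinase, of -0.21 and -0.08, SLC3A2 of -0.26 and -0.15, SLC7A5 of -0.28 and -0.10 and SLC1A4 of -0.23 and -0.32. MTHFD2 had ratios of -0.04 and -0.24, while PSPH, SHMT2, ALDH1L2, CTH, SLC7A1 and SLC38A2 had pairs of opposite sign.

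Overexpression and knockdown were then compared with each other, each against its own control, to see which members stood on opposite sides of their controls. Higher in both overexpression pairs and lower in both knockdown pairs were 8 members (24.2%), compared with 12.5% of all genes: CHAC1, PHGDH, PYCR1, SLC3A2, SLC7A5, SLC1A5, SLC6A9 and STC2. The reverse held for 0 members (6.85% of all genes). ATF4, DDIT3, TRIB3, DDIT4 and PPP1R15A were higher in all 4 pairs (4.86% of all genes), and PSAT1, MTHFD2, VLDLR and ALDH18A1 lower in all 4 (9.67%). By limma on the difference of the changes, 0 members passed (lowest adjusted p = 0.35), a call made for 0.0200% of genes. At an unadjusted p under 0.05 stood 13 members (13.0% of genes), 10 above 0 (8.52%) and 3 below (4.47%), and the sign is that of overexpression minus knockdown. The count was 7 with the trend on length and GC content removed (9.51% of genes), 6 without the first overexpression pair (6.58%) and 4 without the second (5.92%). It was also 7 when the limma spread was not modelled on the mean level (11.1%). It was 1 with the replicate block dropped and the levels quantile-normalized (3.71% of genes). The largest difference was that of SLC6A9 (0.77, SE 0.19, adjusted p = 0.35, limma), followed by PYCR1 (0.66, SE 0.22), NUPR1 (0.60, SE 0.15), PHGDH (0.60, SE 0.12) and SLC3A2 (0.56, SE 0.13). The 3 below 0 at that unadjusted p, where the overexpression change was the lower one, were XPOT (-0.44, SE 0.16), TRIB3 (-0.42, SE 0.14) and SLC38A2 (-0.38, SE 0.12). Other members, such as DDIT4 (-0.27, SE 0.16), were below 0 without reaching it. Across members the changes had a Spearman correlation of 0.11 (n = 33), and across all genes tested of -0.07.

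**Figure D4:**
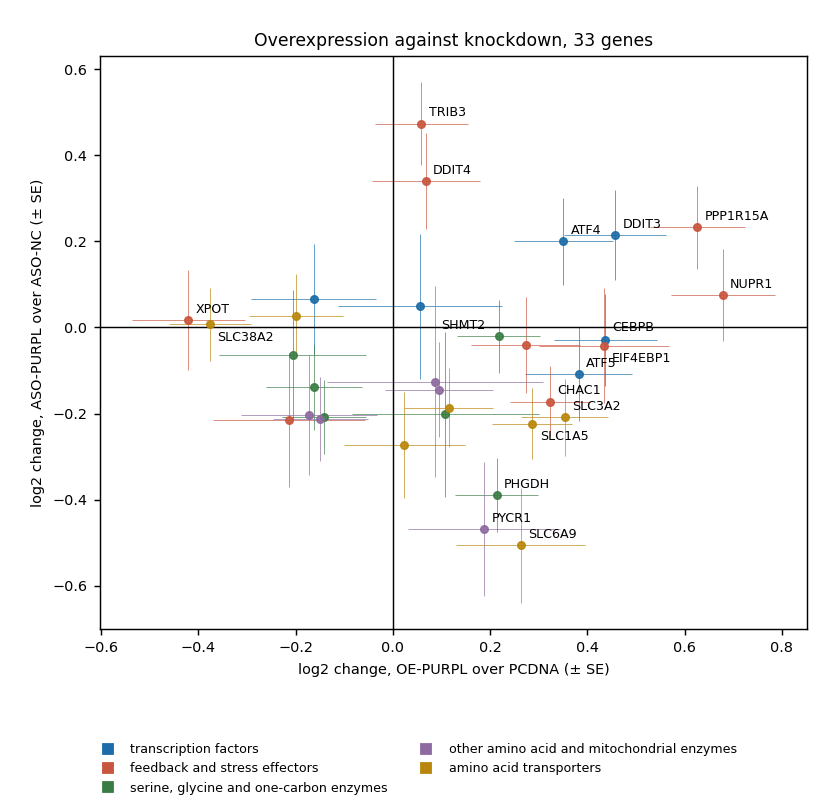
Mean log2 change of each of the 33 genes after overexpression (x axis) and after knockdown (y axis), with bars of 1 SE from limma and names for members with an unadjusted p under 0.05 in either. SLC6A9, PYCR1 and PHGDH lie at the lower right, TRIB3 and DDIT4 at the top, and XPOT and SLC38A2 at the left.

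PCDNA and ASO-NC, the controls of the arms, were also set against each other. Only replicate 2 holds both in a table, and replicate 1 compares across tables, so no test was run. Of the members, 20 were lower in PCDNA in both replicates (35.1% of all genes) and 7 higher (35.7%), with a median difference of -0.42 compared with -0.02 for all genes tested. CTH is among the 20, but it passed the filter through the knockdown arm only, so its direction here is tied to that filter. A log2 difference of at least 1 in both replicates was seen for 3 members (9.09%, near the 7.65% of all genes), namely PYCR1 downward (2.94%) and SLC6A9 and SLC38A2 upward (4.71%). The count was 5 with a pseudocount of 0.1, which added CTH and TRIB3 (13.7% of genes), and 7 in replicate 2 alone, where 13.0% of genes passed. SLC38A2 was not among them after quantile normalization, nor SLC6A9 with a pseudocount of 5. By role, the differences had medians of 0.53 for transcription factors, -0.60 for stress effectors, -0.36 for serine and one-carbon enzymes, -0.90 for the other enzymes and -0.07 for transporters. The median of the other enzymes was the value of CTH itself, so it is tied to that filter as well. The rest of that role stood at -2.24 (PYCR1), -0.90 (PCK2), -0.42 (ALDH18A1) and -0.06 (ASNS). Plasmid and oligonucleotide delivery, culture and library batch cannot be told apart here.

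PYCR1 (chromosome 17, 81932384 to 81942412, minus strand) stood at 12.7 and 14.7 FPKM in PCDNA, while ASO-NC had 90.1 and 52.0 FPKM, log2 differences of -2.73 across tables and -1.75 within the table. SLC6A9 (chromosome 1, 43991500 to 44031467, minus strand) stood at 25.6 and 19.4 FPKM in PCDNA and 9.25 and 7.22 FPKM in ASO-NC, 2.77-fold and 2.68-fold. SLC38A2 stood at 251 and 275 FPKM in PCDNA and 122 and 129 FPKM in ASO-NC, 2.06-fold and 2.13-fold. None of these groups overlapped. TRIB3 was near the line, at 11.9 and 11.6 FPKM in PCDNA and 24.4 and 33.6 FPKM in ASO-NC (-0.97 and -1.45), and PPP1R15A at 243 and 251 FPKM in PCDNA and 139.9 and 104 FPKM in ASO-NC (0.79 and 1.26). ATF4 differed by 0.37 and 0.42 and ATF5 by 0.84 and 0.88, both higher in PCDNA. SLC7A5, PCK2, XPOT and DDIT4 were lower in PCDNA in both replicates, by 0.60 to 1.08 on the log2 scale. So was CTH, which passed the filter through the knockdown arm only. NUPR1 (-1.30 and 0.53), STC2, PHGDH, ASNS, SLC1A5 and SLC1A4 had opposite signs in the replicates. Summed levels of 5 mitosis genes moved with the same contrast (63.8 and 75 FPKM in PCDNA, 21.0 and 18.2 FPKM in ASO-NC), as did the interferon-stimulated genes, and their part in these differences was not tested.

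**Figure D5:**
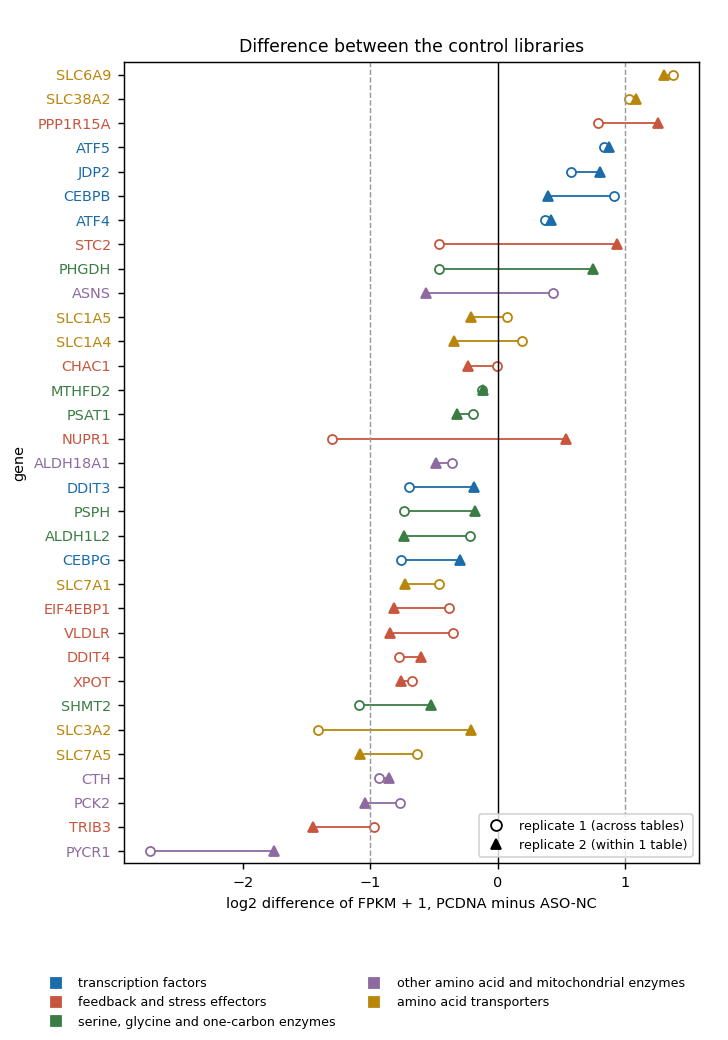
Log2 difference of FPKM plus 1, PCDNA minus ASO-NC, for each of the 33 genes (rows, ordered by mean difference), with circles for replicate 1 across tables and triangles for replicate 2 within a table. Dashed lines mark a difference of 1, which SLC6A9 and SLC38A2 exceed upward and PYCR1 downward in both replicates.

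Other genes of the pathway were read from the same fit, and 0 of them passed it in either comparison (limma). At an unadjusted p under 0.05 stood 9 of the 81 tested genes of these 5 lists after overexpression (11.1%, 4 higher and 5 lower), compared with 13.8% of all genes, and 6 after knockdown (7.41%, 3 higher and 3 lower), compared with 8.18%. The counts in both pairs below stand against 32.6% of all genes higher and 31.1% lower after overexpression, and 19.3% higher and 33.4% lower after knockdown. Of 10 genes for the eIF2alpha kinases and their regulators, 0 were higher and 6 lower in both overexpression pairs, with a median of -0.18, and 4 were higher and 4 lower in both knockdown pairs (0.02). EIF2AK2, the double-stranded RNA sensor PKR and itself induced by interferon, stood at 51.1 and 56.2 FPKM in OE-PURPL, 55.7 and 61.4 FPKM in PCDNA, 15.5 and 13.3 FPKM in ASO-PURPL and 14.0 and 10.5 FPKM in ASO-NC. It was thus higher in the plasmid arm throughout, by 1.92 and 2.44 between the controls. EIF2AK1, the heme-regulated kinase, had ratios of 0.23 and -0.19 after overexpression and of -0.33 and -0.27 after knockdown. EIF2AK3, the endoplasmic reticulum kinase PERK, had -0.35 and -0.03, and -0.76 and -0.22. EIF2AK4, the amino acid sensor GCN2, had -0.27 and -0.37, and -0.13 and 0.04. DNAJC3, an inhibitor of these kinases, had overexpression ratios of -0.35 and -0.48.

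The next list (14 genes) held subunits of eIF2, of eIF2B and of the phosphatase, and the separate initiation factors EIF2A and EIF2D. Its median was 0.08 after overexpression, with 5 higher and 4 lower in both pairs. After knockdown it was -0.07, with 0 higher and 7 lower, EIF2A and EIF2D among the 7. EIF2B1, an eIF2B subunit, had knockdown ratios of -0.31 and -0.33, and EIF2S3, the gamma subunit of eIF2, overexpression ratios of -0.19 and -0.27. The 20 cytosolic aminoacyl-tRNA synthetases, which load tRNA and are common ATF4 targets, had medians of 0.00 and -0.05, with 7 higher and 6 lower after overexpression and 2 higher and 12 lower after knockdown. WARS1, the tryptophan enzyme and an interferon-induced gene, stood at 971 and 1060 FPKM in OE-PURPL against 875 and 777 FPKM in PCDNA, and at 86.997 and 86.4 FPKM in ASO-PURPL against 114 and 87.6 FPKM in ASO-NC. Between the controls 13 of the 20 were lower in PCDNA in both replicates (35.1% of all genes) and 2 higher (35.7%).

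Of 24 other reported ATF4 targets, 22 were tested, and 9 were higher and 6 lower in both overexpression pairs (median 0.07), 7 higher and 9 lower in both knockdown pairs (-0.08). CEBPD, a C/EBP factor, stood at 38.2 and 39.6 FPKM in OE-PURPL against 26.2 and 20.8 FPKM in PCDNA, and at 22.8 and 13.9 FPKM in ASO-PURPL against 17.5 and 10.8 FPKM in ASO-NC. ATF3, a stress factor downstream of ATF4, had ratios of 0.28 and 0.36 and of 0.25 and 0.23. Both were higher in all 4 pairs. BBC3, the cell death gene also called PUMA and a p53 target too, had knockdown ratios of 0.67 and 0.67, at 29.7 and 20.9 FPKM in ASO-PURPL against 18.3 and 12.8 FPKM in ASO-NC. The 15 genes of the IRE1 and ATF6 arms, the other branches of the unfolded protein response, had medians of 0.08 and -0.07, with 7 higher and 2 lower after overexpression and 1 higher and 8 lower after knockdown. SDF2L1, a partner of the chaperone BiP in the endoplasmic reticulum, had overexpression ratios of 0.46 and 0.29, and DNAJB9, a co-chaperone of BiP, had knockdown ratios of -0.41 and -0.13.

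Some values rest on genes that reads cannot place with ease. In GENCODE 29, 8 members (ASNS, ATF4, EIF4EBP1, MTHFD2, PSAT1, PSPH, SLC7A5 and XPOT) have named pseudogenes and 19 overlap another gene, DDIT3 with the tRNA synthetase gene MARS and ATF5 with NUP62 among them. Whether counting used the strand is not stated in those sources, so their levels are uncertain to that extent.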

How the data were processed

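RNA was taken up in TriZol and sequenced with a SMARTER mRNA kit, per the labels' protocols. Per the submitters' processing notes, the tools include STAR and Cufflinks and the build is hg38, with no version; no source used here names the annotation. The authors deposited FPKM, a unit inferred from the values and from Cufflinks, and for replicate 1 also log2 fold changes, which were not used. Each table had 60635 rows. For names on several rows (1264 rows repeated one) the row of highest mean was kept, and 1 gene with a text cell was left out.

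Log2 ratios of FPKM plus 1 within each table were modelled by limma 3.58.1 under R 4.3.3 (eBayes with trend, 2 residual degrees of freedom per gene, 3.34 added). All ratios of a gene shared an estimate of spread. Its SE is thus the same for overexpression and knockdown, and does not show the spread of either comparison alone. The test took the 14977 genes whose mean reached 1 FPKM in either arm, with Benjamini-Hochberg adjustment over all of them and a threshold of 0.05. Pairs follow the tables; deviations of same-numbered libraries correlated with r = 0.14 (overexpression) and 0.49 (knockdown). The fit was tested on simulated data with changes far larger than those of the members. That run does not show whether changes of the members' size could be found.

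Members, gene lists and the naming rule were chosen with earlier results of these data known. Members were described in full where an unadjusted p was under 0.05, where both ratios of a comparison were at least 0.4 in size with 1 sign, or where the controls differed by at least 1 in both replicates, and ATF4 always. From the other lists at most 4 genes were named in each comparison, from among the largest mean changes of 1 sign in both pairs, and EIF2AK1 to EIF2AK4 always. Some changes larger than a named one were left out. Examples are VEGFA and KLHL24 after overexpression (0.37 and 0.35) and EIF2D after knockdown (-0.32). Promoter windows came from RefSeq (GRCh38.p14) and coordinates from GENCODE 29 (GRCh38, the assembly of hg38). Alternatives covered pseudocount, filter, block, trend, scaling, repeated names, length and GC content (longest transcript per name), and leaving out each pair.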

Additional observations from a re-analysis of the deposited data

How the results depend on the processing

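No member passed the test in any of the 3 comparisons under any alternative run, and the lowest adjusted p of a member over all of them was 0.226 for overexpression, 0.462 for knockdown and 0.277 for their difference. The 20 changes of members described in full kept their sign in all 260 refits, but many of these refits could not have reversed it. The filter, the eBayes trend, summing of repeated names and leaving out a pair of the other arm do not alter a member's estimate. Nor can leaving out a pair reverse a change whose pairs share a sign. In a fit of quantile-normalized levels that drops the replicate block, 0 members passed in each comparison, and 5 genes passed for overexpression, 0 for knockdown and 4 for the difference. Of all genes, 4 passed for overexpression, 2 with a pseudocount of 5, 1 with the trend on length and GC content removed, and 0 to 1 with a pair left out. For knockdown 0 passed, 1 with a pseudocount of 0.1 and 9 without a filter, and for the difference 3 passed, 10 without a filter and 0 with any pair left out. The cause was not tested. Between PCDNA and ASO-NC, 3 members passed the fold in both replicates (7.65% of genes), 5 with a pseudocount of 0.1 (13.7%), 11 at 1.5-fold (19.8%) and 7 in replicate 2 alone (13.0%). With read depth unknown, no counting error can be given for low members such as CTH.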
